A study of Homo sapiens with 12 samples.

Results

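H3K27ac, the acetylation of histone H3 at lysine 27, was compared between Panc327 and SUIT2, both cultured human pancreatic ductal adenocarcinoma lines, as called ChIP-seq peaks. The comparison used the 4 peak lists of Panc327 replicates 1 and 2 and SUIT2 replicates 1 and 2 on chromosomes 1 to 22 and X. Peaks that shared at least 1 bp were merged, which gave 47591 regions, against 58994 regions when the 6 lists of the whole series are merged. Of the 47591 regions, 6056 (12.7%) had a peak in both Panc327 libraries and in no SUIT2 library, 10906 (22.9%) had a peak in both SUIT2 libraries and in no Panc327 library, and 13612 (28.6%) had a peak in all 4. These classes are defined by the calls themselves, so their sizes describe the lists and carry no test.

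The study belongs to work on the histone deacetylase SIRT6 in stress signalling, and its series holds 12 samples from 3 pancreatic cancer lines. Panc327 and SUIT2 cells were both untreated and grown under standard conditions, with no genotype or agent that set the groups apart other than the line. For either line there were 2 libraries of H3K27ac and 2 of input, the inputs being chromatin sequenced without an antibody. SUIT2 is an established line, derived from pancreatic cancer that had spread to the liver. The third line, BxPC3, was used here for 1 comparison outside the definition of the classes. Each group is a single cell line, so a difference between the groups is a difference between these lines and cannot be told apart from any other property of their cultures. The labels do not say whether replicates were separate cultures, so the spread between them may be technical.

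H3K27ac is laid down by the acetyltransferases p300 and CBP and is removed by histone deacetylases. It marks active promoters, which usually lie next to transcript starts and are shared by many cell types, and active enhancers, which regulate genes from a distance and differ more between cell types. Broad stretches of the mark are often made of several neighbouring enhancers, and in tumour lines they are commonly used to describe the state of the cells. All positions below are on hg19, the build of the lists. No annotation of that build was used, so regions are given by position and no gene, promoter or enhancer is assigned to them.

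The 4 lists differed in how much of the genome they called. Panc327 held 27776 and 29139 peaks over 34.1 and 46.3 Mb in replicates 1 and 2, and SUIT2 held 29983 and 31421 peaks over 60.1 and 63.3 Mb. The peak numbers were close, but both SUIT2 libraries covered more bases than both Panc327 libraries. The reads piled up at peaks could be recovered from the deposited fold and −log10 p of 99.9 to 100% of the peaks. The lowest background so recovered at any peak of a list was taken as its genome-wide level. It was 1.46 and 2.85 reads in Panc327 and 3.29 and 3.61 reads in SUIT2, least in Panc327 replicate 1. Background, covered length and line moved together, and their part in the results below was not tested beyond the alternatives given beside them.

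The libraries of a line shared more covered bases with each other than with the other line. The Jaccard index, the bases covered in both lists over those covered in either, was 0.519 for the Panc327 pair and 0.868 for the SUIT2 pair. Panc327 replicate 1 reached 0.287 with SUIT2 replicate 1 and 0.280 with SUIT2 replicate 2. Panc327 replicate 2 reached 0.344 and 0.338 with the same libraries. All 4 values between lines lay below both values within lines. The mean was 0.693 within lines and 0.312 between them, a difference of 0.381. The exact one-sided permutation test over the 3 ways to split 4 libraries into pairs gave p = 0.333, the smallest it can give, and the higher of the other splits gave −0.190.

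Regions called in both lines were mostly called in all 4 libraries. The 13612 of these stood against 1612 regions of both SUIT2 libraries and Panc327 replicate 2, 918 of both SUIT2 libraries and Panc327 replicate 1, and 232 and 96 of both Panc327 libraries and SUIT2 replicate 2 or 1. The plot of call patterns shows the 3 classes as the most frequent patterns. Panc327 replicate 2 alone held 5879 regions and Panc327 replicate 1 alone 4100. SUIT2 replicate 2 alone held 2760 and SUIT2 replicate 1 alone 1123. The Panc327 pair therefore left more unmatched calls than the SUIT2 pair. Pairs of 1 Panc327 and 1 SUIT2 library held between 32 and 132 regions each, 297 in all.

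**Figure D1:**
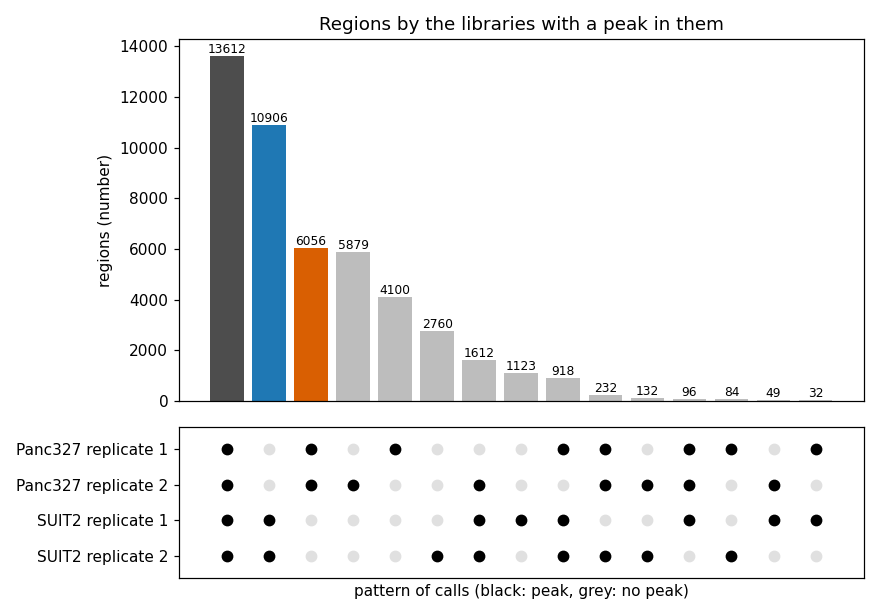
Number of merged regions (y axis) for each pattern of calls over the 4 libraries, with the libraries that have a peak marked black below each bar. Regions of all 4 libraries (13612), of both SUIT2 libraries (10906) and of both Panc327 libraries (6056) are the highest bars.

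Panc327 had 19996 regions called in both of its libraries. SUIT2 libraries both shared 13612 of them (68.1%), lacked 6056 (30.3%) and were split over 328 (1.64%). SUIT2 had 27048 regions called in both of its libraries, of which both Panc327 libraries shared 50.3%, lacked 40.3% and were split over 9.35%. SUIT2-specific regions outnumbered Panc327-specific ones 1.801 to 1. That ratio moved with the Panc327 library left out. Without Panc327 replicate 1 it turned to 0.973, with 12194 Panc327-specific and 11860 SUIT2-specific regions, and without Panc327 replicate 2 it was 1.13. It was 2.32 when SUIT2 replicate 1 was left out and 2.08 when SUIT2 replicate 2 was. With a library left out, a single call sufficed for its line, while both calls were still required of the other line. Regions called in the remaining library alone then entered that line's class. These ratios therefore rest on unequal rules and cannot settle which line held more regions of its own.

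Line-specific regions were narrower and weaker than shared ones. The median region was 1287 bp wide in the Panc327-specific class, 1245 bp in the SUIT2-specific class and 2614 bp among regions of all 4 libraries. Without Panc327 replicate 1 the median of the Panc327-specific class was 787.5 bp, and without replicate 2 it was 607 bp. A single Panc327 call sufficed for the class in these settings. Shared regions join peaks of 4 lists and line-specific ones those of 2, so their widths are not like for like. Single Panc327 peaks, by replicate, had median widths of 775 and 1025.5 bp in specific and 1369 and 1824 bp in shared regions. Those of SUIT2 had 997.5 and 1105 bp against 2068 and 2146 bp. A wider peak also more easily shares 1 bp with another, so width is no independent finding. Strength was read as the percentile of a peak's −log10 q within its own list, where 100 is the strongest peak, since the authors' fold and q values are not comparable between lists. The median peak in Panc327-specific regions stood at percentile 37.8 in replicate 1 and 39.4 in replicate 2. The median peak in SUIT2-specific regions stood at 31.0 and 35.1. In regions of all 4 libraries the median was 70.3 and 71.5 in Panc327 and 73.4 and 74.95 in SUIT2. All 4 libraries thus had their shared peaks far above their line-specific ones. A call itself depends on strength, so this describes the classes and is no independent finding. Within replicate 1 of each line the authors' median fold over background was 15.7 in Panc327-specific and 54.1 in shared peaks of Panc327, and 10.4 and 48.2 in those of SUIT2. In replicate 2 the medians were 9.34 and 16.9 in Panc327 and 10.9 and 50.7 in SUIT2. Each pair of folds is read within its own list, and the gaps are not compared between lists.

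Nearly all of the strongest peaks lay in shared regions under the 1 bp rule. Among the 1000 strongest peaks of a list, 985 and 955 lay in regions of all 4 libraries in Panc327 replicates 1 and 2, and 967 and 962 in SUIT2. Panc327-specific regions held 15 and 43 of them, and SUIT2-specific regions 16 and 18. With only libraries that covered at least 50% of a region counted as calling it, these numbers were 48 and 78 in Panc327 and 214 and 215 in SUIT2. In the regions so added a peak of the other line was present but covered less than that share. With windows of raised local background left out (described below), line-specific regions held 9 and 19 in Panc327 and 16 and 18 in SUIT2. Line-specific peaks were most frequent in the lower middle of each list. With each list cut into 10 bins of increasing −log10 q, they made up 66.7% of the third bin and 2.50% of the top bin in SUIT2 replicate 1. In SUIT2 replicate 2 they reached 66.4% in the fourth bin and 2.70% in the top one. In Panc327 they reached 41.6% in the fifth bin of replicate 1 and 32.2% in the fourth bin of replicate 2, against 1.77% and 5.42% in the top bins. The weakest bin of each list held fewer, and 36.8 to 62.3% of its peaks lay in regions of other patterns, such as those called in 1 library.

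**Figure D2:**
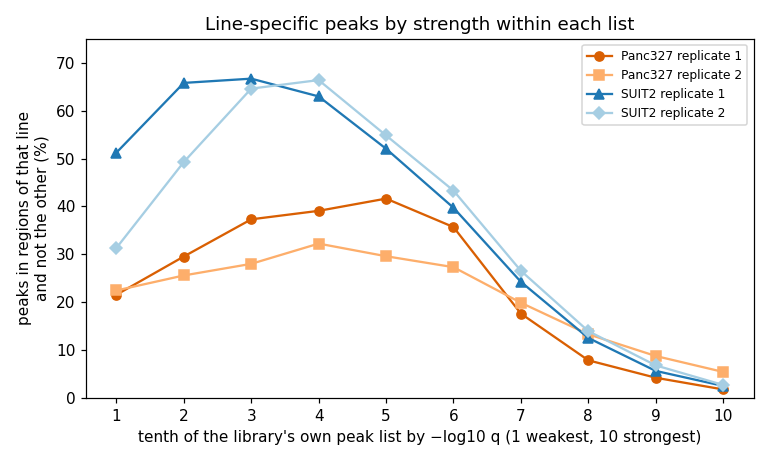
Share of peaks (y axis, %) that lie in regions of their own line and not the other, for 10 bins of a library's list from the weakest to the strongest −log10 q (x axis), with 1 line per library. The share is highest in the lower middle of each list and is between 1.77 and 5.42% in the strongest bin.

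The replicates of SUIT2 gave the same order of its specific regions more closely than those of Panc327. Across the 10906 SUIT2-specific regions, Pearson's r between the replicates was 0.941 for the percentile and 0.985 for the covered bases. Across the 6056 Panc327-specific regions it was 0.516 and 0.594. These are correlations across regions of the same lists and describe them only, since regions are not independent replicates. In the strongest 25% of both lists of their line stood 379 SUIT2-specific regions (3.48%) and 179 Panc327-specific regions (2.96%). For Panc327 the 2 libraries differed here, with 250 such regions in the strongest 25% of replicate 1 and 574 in that of replicate 2.

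SUIT2 had broad regions of its own and Panc327 had few. Of the SUIT2-specific regions 60 spanned at least 10 kb and 5 at least 20 kb, and of the Panc327-specific regions 3 and 0. Those of at least 10 kb numbered 49 to 85 in SUIT2 and 0 to 4 in Panc327 with 1 library left out, the 0 being without Panc327 replicate 2. With 50% coverage asked for they numbered 270 and 7. The widest was 27567 bp in SUIT2 and 12549 bp in Panc327. Regions of all 4 libraries held 301 of at least 10 kb, with the widest at 71084 bp. At least 10 kb was covered in 27 and 62 shared regions by Panc327 replicates 1 and 2, and in 243 and 259 by those of SUIT2. The broader calls of SUIT2 were therefore not particular to its specific regions.

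The 10 broadest SUIT2-specific regions covered nearly the same bases in both SUIT2 libraries. The first, chr3:139006191-139033757, was covered by a single peak of 27161 bp in replicate 1 and one of 27241 bp in replicate 2, with no peak of either Panc327 library. The summits of those 2 peaks lay apart, so it was not called in both libraries when summits with 250 bp on either side were compared, and 9 of the 28 named line-specific regions lost their class in that setting. On chromosome 20, chr20:50298842-50324664 was covered over 24509 and 25823 bp, and its strongest peaks stood at percentiles 99.0 and 99.1. The region chr15:67049484-67073583 had 23709 and 23639 bp. At chr5:82844768-82866674 the peaks covered 20860 and 21907 bp, and the nearest region of all 4 libraries was 470 kb away. The region chr13:73896149-73916504 had 19650 and 20258 bp and peaks at percentiles 96.4 and 98.9. The next, chr10:32477621-32496974, had 19260 and 19354 bp. On chromosome 4, chr4:11414364-11434202 had 19129 and 19222 bp and lay 954 kb from the nearest region of all 4 libraries, the farthest of the 10. The remaining 3, chr16:82058796-82077116, chr7:45917107-45934984 and chr1:98787167-98804280, had between 16998 and 18227 bp in each library. In none of the 10 did the libraries differ by more than 1314 bp.

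The 10 broadest Panc327-specific regions were shorter and less alike between replicates. The first, chr9:97857613-97868737, was called as 5 peaks covering 9251 bp in replicate 1 and as 1 peak of 10825 bp in replicate 2. It lay 0.289 kb from a region of all 4 libraries, so it adjoins a stretch that SUIT2 shares and was merged with it when peaks up to 500 bp apart were joined. At chr9:140204146-140213744 the peaks covered 9599 and 8067 bp, and at chr1:1354278-1362860 they covered 8583 and 7898 bp. Of the 10, those are the regions in which replicate 1 covered more than replicate 2. The region chr1:205262915-205272108 had 6999 and 8954 bp, chr3:134044538-134053569 had 6678 and 9032 bp, and chr19:46699500-46707772 had 7281 and 8147 bp. The region chr1:23151783-23161520 had 5620 and 9738 bp. In the remaining 3, chr6:44626794-44637487 had 4266 and 10694 bp, chr1:209600557-209609160 had 5817 and 8604 bp, and chr3:189550167-189562715 had 1635 and 12549 bp. In these, too, replicate 2 covered more. The last of these is the widest Panc327-specific region, and nearly all of its width came from replicate 2. It and chr6:44626794-44637487 lost their class when 50% coverage was asked for, since replicate 1 covered less than that. The last 2 regions lay in 2 Mb windows where the local background of Panc327 was 1.70 and 2.05 and 2.04 and 2.09 times the genome-wide value.

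**Figure D3:**
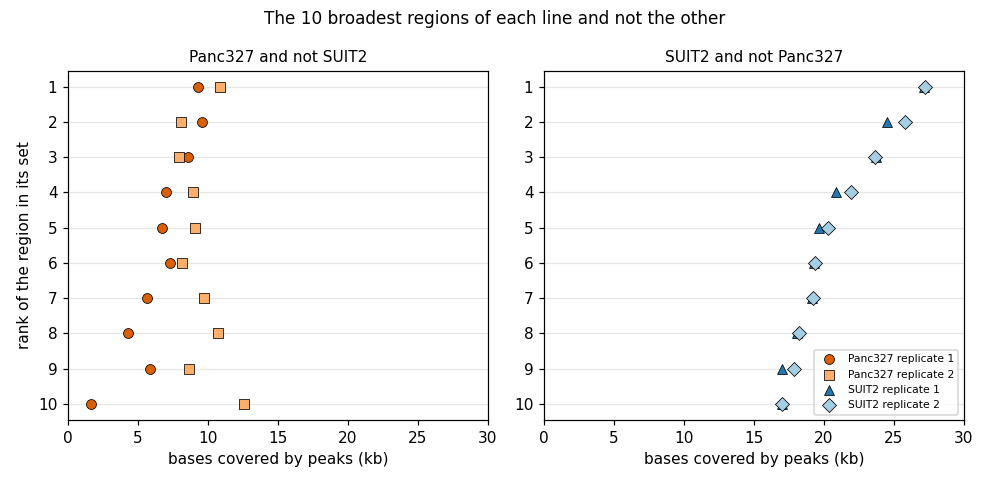
Bases covered by peaks (x axis, kb) in each library for the 10 Panc327-specific (left) and 10 SUIT2-specific (right) regions with the most covered bases, ranked from 1 (y axis). The SUIT2 replicates lie between 16.998 and 27.241 kb and differ by 33 to 1314 bp. The Panc327 replicates lie between 1.635 and 12.549 kb and differ by 685 to 10914 bp.

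The strongest line-specific peaks were other regions than the broadest ones, except for 2 of SUIT2. The strongest SUIT2-specific region was chr20:42982411-42987108, 4340 and 4601 bp at percentiles 99.8 and 99.9 of the replicates. The region chr9:21970983-21976896 followed with 5875 and 5634 bp at percentiles 99.4 and 99.3. The broad regions chr7:45917107-45934984 and chr20:50298842-50324664 came next, and chr12:71545170-71560542 had 15367 and 15359 bp at percentiles 99.0 and 99.2. All 5 stood near the top of both SUIT2 lists, and neither Panc327 library had a peak there. The last of them lay 495 kb from the nearest region of all 4 libraries. Around chr9:21970983-21976896 and chr12:71545170-71560542, Panc327 replicate 1 had too few peaks for a local background to be given. The number of copies of these stretches in Panc327 was not analysed.

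For Panc327, 4 of the 5 strongest specific regions lay where its own local background was raised. Raised here means a local background above 2 times the genome-wide level over the peaks of a 2 Mb window in either replicate. The sources used here do not say whether the caller took this background from the input library. The strongest, chr19:39282659-39285416, covered 2758 and 2680 bp at percentiles 99.98 and 99.97. The next, chr19:39656663-39661842, covered 5030 and 3062 bp at percentiles 99.8 and 99.96. With chr19:38144563-38147490, which covered 1890 and 2928 bp, they lay in a window with a Panc327 background of 4.37 and 4.70 times its genome-wide value and 1.00 in both SUIT2 libraries. The region chr17:17683627-17688253 covered 4602 and 4387 bp, with a background of 2.38 and 2.51 in Panc327 and 1.00 in SUIT2. The fifth, chr14:23833544-23836506, covered 2786 and 2963 bp, with 1.72 and 1.87. The part of the raised background in these peaks was not tested.

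Raised windows held few of the class as a whole. There were 45 such windows in Panc327 and 3 in SUIT2. The Panc327 windows held 398 of the Panc327-specific regions (6.57%) and 4.96% of all 47591 regions. They also held 410 SUIT2-specific regions (3.76%). With all raised windows left out, 5642 Panc327-specific and 10467 SUIT2-specific regions were left.

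The regions of all 4 libraries were broader in SUIT2 more often than in Panc327. Both SUIT2 libraries covered more bases than both Panc327 libraries in 8056 of 13612 regions (59.2%), and both Panc327 libraries covered more in 2246 (16.5%). Over 2 times as many bases were covered by both SUIT2 libraries in 1144 regions (8.4%) and by both Panc327 libraries in 438 (3.22%). The median covered length per region was 1522 and 1923 bp in Panc327 and 2164.5 and 2231 bp in SUIT2. The medians of the Panc327 libraries lay farther from each other than that of Panc327 replicate 2 from those of SUIT2. Without Panc327 replicate 1, 9846 regions were broader in SUIT2 and 4415 in Panc327.

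The largest excess of SUIT2 lay at chr7:130550866-130614243, where peaks covered 62475 and 62889 bp in SUIT2 and 1177 and 12551 bp in Panc327. The widest region of all, chr11:65144009-65215092, had 68721 and 71084 bp in SUIT2 and 14215 and 15725 bp in Panc327. The bases lay in 4 and 3 peaks in the Panc327 libraries, in 5 peaks in SUIT2 replicate 1 and in 1 peak in SUIT2 replicate 2. At chr20:48282372-48332118 SUIT2 had 49476 and 49225 bp and Panc327 2089 and 9585 bp. The Panc327 peaks there were short but strong, at percentiles 99.5 and 98.9 of their lists. At chr9:21544595-21594190 SUIT2 had 49320 and 48730 bp and Panc327 1823 and 12996 bp. At chr9:38022797-38071111 SUIT2 had 47319 and 48273 bp and Panc327 7097 and 14650 bp. The next 5 were on chromosomes 15, 17 and 22 and covered 40485 to 44005 bp in SUIT2 libraries and 1451 to 18079 bp in Panc327 ones. Among them, chr22:46447645-46491091 had 10801 and 9164 bp in Panc327 at percentiles 99.7 and 99.1, again strong peaks over a shorter stretch. Chromosome 15 held 3 of the 5, chr15:67405767-67447853, chr15:96859656-96904194 and chr15:60660319-60704304.

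The excess of Panc327 was smaller in bases and in some regions came from 1 library. At chr12:28116880-28138368 Panc327 had 5932 and 21489 bp and SUIT2 1671 and 1527 bp, in a window with a Panc327 background of 2.16 and 2.62. At chr2:175196807-175209700 Panc327 had 9809 and 12894 bp and SUIT2 699 and 666 bp. The Panc327 peaks there stood at percentiles 93.8 and 92.2 of their lists and the SUIT2 peaks at 34.1 and 30.2. The region chr21:44929461-44943505 had 9334 and 14045 bp against 1070 and 1048 bp. At chr20:62680105-62689639 the values were 9535 and 8377 bp against 604 and 651 bp. In these 3 the background of Panc327 was at most 1.18. By contrast chr3:111447726-111461094 had 480 and 13369 bp in Panc327 and 407 and 456 bp in SUIT2, so its difference came from Panc327 replicate 2. The replicates were closer at chr7:75918830-75927659, where 7553 and 8795 bp in Panc327 stood against 1795 and 1803 bp in SUIT2, with a background of 1.00 in all 4 libraries.

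**Figure D4:**
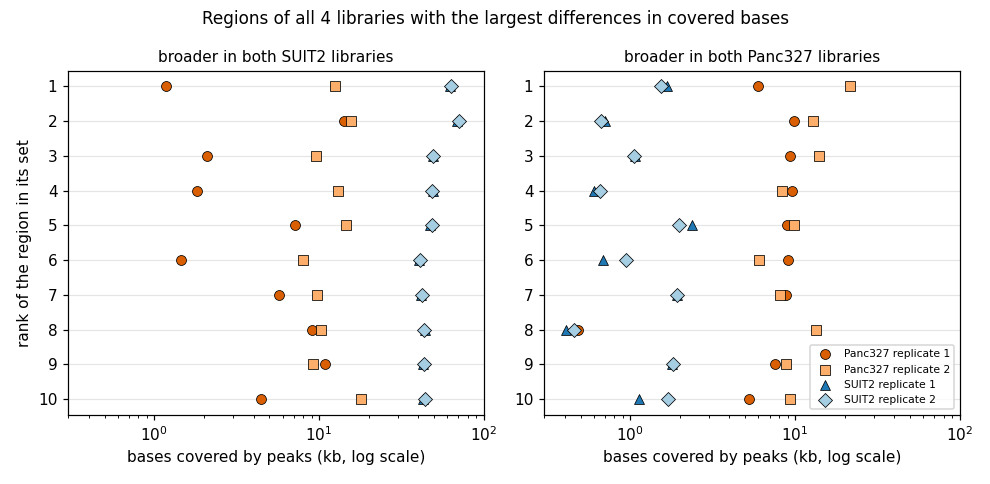
Bases covered by peaks (x axis, kb on a log scale) in each library for the 10 regions of all 4 libraries with the largest excess in both SUIT2 libraries (left) and in both Panc327 libraries (right), ranked from 1 (y axis). The SUIT2 replicates nearly coincide on the left, and the Panc327 replicates are far apart in several, most of all at rank 8 on the right (0.480 and 13.369 kb).

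Line-specific regions of SUIT2 stood farther from shared regions than those of Panc327, and closer to each other in a larger class. The nearest region of the same class was at a median of 16.1 kb in SUIT2 and 29.0 kb in Panc327. The nearest region of all 4 libraries was at a median of 46.3 kb from a SUIT2-specific region and 22.3 kb from a Panc327-specific one. Within 10 kb of a shared region lay 21.5% of the SUIT2-specific and 30.7% of the Panc327-specific regions, and farther than 500 kb from any lay 8.80% and 1.75%. The medians to a shared region kept their order under 9 alternatives, from 21.2 to 38.3 kb for Panc327 and from 35.9 to 145 kb for SUIT2. The distance to the same class depends on the size of the class, 10906 regions in SUIT2 and 6056 in Panc327. The closer spacing within the SUIT2 class is therefore not read as a trait of either line.

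Few line-specific regions lay close to a call of the other line, but the shared class depended on the coverage asked for. Within 100 bp of a region called in a library of the other line lay 10 Panc327-specific and 33 SUIT2-specific regions. Within 500 bp lay 157 (2.59%) and 467 (4.28%). With 50% coverage asked for, 7173 of the 13612 regions of all 4 libraries stayed in that class. Among regions of all 4 libraries, 2 had under 100 bp covered by both lines, the least 8 bp, and the median region had 70.0% of its width covered by both.

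Stretches of consecutive SUIT2-specific regions with no Panc327 peak between them reached 26 regions. A run of that kind lay at chr4:10585451-11809273, where the 26 regions covered 91908 and 96213 bp in the SUIT2 replicates. The run at chr7:117023707-117472255 packed 25 regions with 84682 and 94869 bp into 449 kb. That at chr8:121868730-123588979 held 25 regions over 1720 kb, with 60863 and 65412 bp. The run at chr3:12199390-12523452 held 24, in a window where the Panc327 background was raised to 3.69 and 4.06, and that at chr1:87810093-88794465 held 23. In Panc327 the longest runs without a SUIT2 peak were shorter, with 17 regions at chr7:372083-532551, 15 at chr21:44566168-44765009 and 13 at chr3:195862163-196007342. Runs of at least 10 regions numbered 76 in SUIT2 and 9 in Panc327. Without Panc327 replicate 1 they numbered 103 and 60, and without Panc327 replicate 2 they numbered 121 and 53. Leaving out SUIT2 replicate 1 gave 131 and 9, and leaving out SUIT2 replicate 2 gave 114 and 9. Under the stricter −log10 q threshold of 20 they numbered 50 and 2. SUIT2 had more such runs in each of these, and both counts moved with the library left out or the threshold. The count of runs also depends on the size of the classes, 10906 SUIT2-specific and 6056 Panc327-specific regions with all libraries. They held 8728 and 4384 at the stricter threshold, and 11860 and 12194 without Panc327 replicate 1. The part of class size in the counts was not tested. For the line with a library left out, a single call sufficed.

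Counted in 1 Mb windows, the specific regions of a line were densest in windows that differed in how many shared regions they held. The window chr10:114000001-115000000 held 35 SUIT2-specific regions, 7 shared ones and 0 Panc327-specific ones. The window chr10:32000001-33000000 held 31, 5 and 0, and it contains one of the 10 broadest SUIT2-specific regions. Another window, chr20:48000001-49000000, also held 31 SUIT2-specific regions, but with 21 shared and 10 Panc327-specific ones. Background in both chromosome 10 windows was between 1.00 and 1.30 in the 4 libraries. For Panc327 the window chr19:39000001-40000000 held 41 specific regions, 25 shared and 7 SUIT2-specific ones, with the raised Panc327 background given above. The window chr21:44000001-45000000 held 33, 13 and 4, with a background of at most 1.18. It contains both the run of 15 and the shared region chr21:44929461-44943505 that Panc327 covered more broadly.

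The balance of the classes differed between chromosomes. Chromosome 19 held 538 Panc327-specific and 236 SUIT2-specific regions, a ratio of SUIT2 to Panc327 of 0.439. It was the lowest of the 23 chromosomes in the 4 lists and under all 10 alternatives, at 0.267 to 0.608. With the windows of raised background left out the chromosome held 433 and 221 regions (0.510). Chromosome 17 was the second lowest in all of them, with 489 and 412 regions (0.843) and a range of 0.503 to 1.13 that crosses 1. The highest ratios were 4.42 on chromosome X (72 and 318 regions) and 3.99 on chromosome 4 (151 and 603). These chromosomes ranked among the 3 highest under the 10 alternatives, at 2.10 to 6.42 and 1.71 to 5.94. Set against each line's own calls, Panc327-specific regions made up 34.3% of the regions called in both Panc327 libraries on chromosome 19 and 16.9% on chromosome X. SUIT2-specific regions made up 17.8% of those called in both SUIT2 libraries on chromosome 19, 43.3% on chromosome X and 52.5% on chromosome 4. Regions called in Panc327 replicate 1 or 2 alone numbered 380 and 151 on chromosome 19, and 343 and 244 on chromosome 17. They numbered 79 and 97 on chromosome X, 116 and 218 on chromosome 4, and 4100 and 5879 over all chromosomes. The balance of the Panc327 libraries thus also differed between chromosomes, and its part in these ratios was not tested. The number of copies of each chromosome in the lines was not analysed here.

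**Figure D5:**
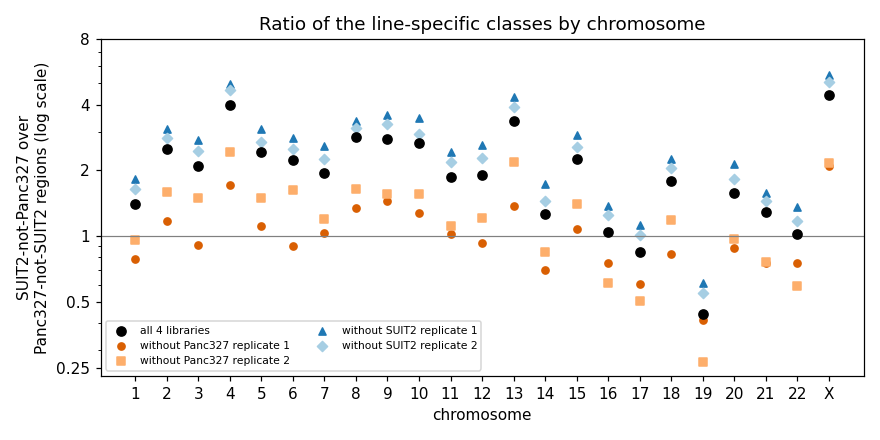
Ratio of SUIT2-specific to Panc327-specific regions (y axis, log scale) on each chromosome (x axis), for all 4 libraries (black) and with each library left out in turn (coloured). Chromosome 19 is the lowest in each, at 0.439 with all 4 libraries. Leaving out a Panc327 library, so that a single Panc327 call suffices, moves all chromosomes down.

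BxPC3, whose calls were not used to define the classes, shared most regions of all 4 libraries and a minority of the line-specific ones. Both BxPC3 libraries had a peak in 93.5% of the regions of all 4 libraries, in 38.6% of the 6056 Panc327-specific regions and in 23.6% of the 10906 SUIT2-specific regions. Neither had one in 5.08%, 56.4% and 70.3%. The share over all regions of the 4 lists is not given here, so none of these shares is set against it. The line-specific shares differed by less when Panc327 was represented by 1 library, so that a single Panc327 call sufficed for its class. Without Panc327 replicate 1 they were 35.5 and 25.8%, and without Panc327 replicate 2 they were 27.5 and 29.9%, the opposite order. Of the 10 broadest Panc327-specific regions 9 had a peak in both BxPC3 libraries, the exception being chr6:44626794-44637487 with none. Of the 10 broadest SUIT2-specific regions 5 had a peak in both, and 4 had none, among them the broadest, chr3:139006191-139033757. The 2 strongest SUIT2-specific regions, chr20:42982411-42987108 and chr9:21970983-21976896, had no BxPC3 peak either.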

How the data were processed

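Each H3K27ac library had its own deposited peak list, so the authors called peaks separately for every library, without pooling. The submitters' processing notes name MACS2, Bowtie 1.1.1, bcl2fastq 1.8.4 and the hg19 build; no version or setting of MACS2 is given in the sources used here. The deposited fold of each peak, a ratio of pile-up to local background, and its deposited −log10 q-value and −log10 p-value are the authors' values, used only within a list. The deposited score was 10 times the −log10 p and was not used further. The summit column served 1 alternative.

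Peaks were merged at 1 bp of overlap, and bedtools 2.31.1 gave the same 47591 regions. Between 1 and 3 peaks per list on other chromosomes were left out. Covered bases were summed per library and region. Pile-up and background were solved from fold and −log10 p, assuming a pseudocount of 1 and a Poisson tail, to within 0.001 of the −log10 p. No label states those settings. Taking the lowest recovered background of a list as its genome-wide level is also an assumption. Background was summarised as the median over peaks of 2 Mb windows with at least 8 peaks. Scripts ran in Python 3.11.15 with pandas 2.3.3, numpy 2.4.6, matplotlib 3.10.9 and scipy 1.17.1. On simulated lists 100% of 47591 regions got their class, and 100% of 4965 simulated pile-ups were recovered. Both were simulated under the rules and assumptions being used, so they check the code and cannot test the assumed settings.

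The named regions follow a rule: per line the 10 with the most covered bases and the 5 with the highest mean percentile, and of all 4 libraries the 5 widest and the 10 with the largest difference in either direction, 48 in all. Windows, runs and chromosomes are the top entries of ranked tables. Members, classes and rules were chosen with earlier results of these data known. Counts of gene lists near transcript starts were planned for the case of an hg19 annotation and were not run. No p across regions was computed.

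Alternatives were a −log10 q of at least 20, the 27776 strongest peaks of each list, a call only where a library covers at least 50% of a region, merging of peaks up to 500 bp apart, summits with 250 bp on either side, windows of raised background left out, and each library left out. With a library left out, a single call sufficed for its line, while both calls were still required of the other line. The alternatives for breadth, distance, runs, chromosomes and BxPC3 were chosen after seeing the data.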

Additional observations from a re-analysis of the deposited data

How the results depend on the processing

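The separation of the lines by covered bases held its direction in each alternative run. It was not computed with 50% coverage, 500 bp merging or raised windows left out. With a library left out, the index within lines came from the pair of the other line only. In the replicate block, with only same-numbered libraries compared between lines, the difference in Jaccard index was 0.381, and same-numbered and other pairs had mean indices of 0.3124 and 0.3119, no sign of pairing. The ratio of SUIT2-specific to Panc327-specific regions was 1.99 at a −log10 q of at least 20, 1.60 with the same number of peaks per list, 2.45 with 50% coverage, 1.69 with 500 bp merging, and 0.973 to 2.32 with 1 library left out, reversed without Panc327 replicate 1. Leaving out 1 library, after which a single call sufficed for its line, gave 6153 to 12194 Panc327-specific regions. It also gave 2614 to 4415 shared regions broader in Panc327, and 50% coverage left 7173 regions of all 4 libraries. The share of Panc327 regions that SUIT2 lacked was 25.7% at the stricter q, 41.2% with 50% coverage, 36.1% with summits and 30.7 to 43.6% with 1 library left out. The share of SUIT2 regions that Panc327 lacked was 37.4%, 52.2% and 44.4% in those settings, 37.8% with equal numbers, 38.2% with 500 bp merging and 43.7 to 46.5% with 1 library left out. Mean median percentiles at the stricter q, which removes the weakest peaks by construction, were 47.8 in Panc327-specific, 42.2 in SUIT2-specific and 75.5 in shared regions. With 50% coverage they were 44.3, 39.9 and 76.4. Equal numbers gave 39.98 and 37.4 in the specific classes, and summits 42.2 in Panc327-specific and 75.1 in shared regions. Median peak widths at the stricter q were 1137.5 bp in Panc327-specific and 1444.5 bp in SUIT2-specific regions, and for SUIT2-specific regions 1232 bp with equal numbers and 1340.75 bp with 50% coverage. Summits have a fixed width, so no width was computed for them. The BxPC3 share of the Panc327-specific class minus that of the SUIT2-specific class ranged from −2.36 to 18.8 percentage points with 1 library left out, negative without Panc327 replicate 2. Causes of these shifts were not tested. Of the 28 named line-specific regions, 28 kept their class at the stricter q and with equal numbers, 27 with 500 bp merging, 26 with 50% coverage and 19 with summits. The regions that lost it include the broadest of either line, chr3:139006191-139033757 with summits and chr9:97857613-97868737 with 500 bp merging. Leaving out a library or the raised windows cannot change the class of such a region. A region without a call may hold the mark below the caller's threshold. Neither depth nor the number of copies of its DNA was tested as a cause.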
